A study of Mus musculus with 5 samples.

Results

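The 6 genes described here are 4 cell surface receptors best known from natural killer (NK) cells and cytotoxic T cells (Klrk1, Klrd1, Klrc1 and Cd160) and 2 signalling adaptors (Fcer1g and Tyrobp), out of 15952 genes with a unique molecular identifier (UMI) in the cells kept. They were chosen by their measured levels in TAT-CRE mice against PBS mice, so those levels are given as a description and with no test. Single T cells of the brain parenchyma, without the choroid plexus, came from 5 mice and were profiled in plates by 1 cell per well. All mice were of the strain Grl1loxP/loxP, whose loxP-flanked alleles are those of the glucocorticoid receptor. TAT-CRE, a Cre recombinase that can enter cells, was injected into the brain ventricles of 3 mice (207 and 208 aged 18 weeks, 215 aged 19 weeks). The other 2 mice received PBS in the same way (216 aged 19 weeks, 218 aged 16 weeks). Both groups underwent foot-shock stress, and cells were sorted as CD45+CD11b-TCRβ+ on day 14 after it, so no mouse was unstressed. The labels do not say which cells the recombinase reached, or whether a library pooled animals. Each library was taken as 1 mouse.

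Klrk1 encodes NKG2D, an activating receptor for ligands that stressed or transformed cells display. Klrd1 encodes CD94, which pairs with NKG2A, the product of Klrc1, into an inhibitory receptor for the non-classical MHC molecule Qa-1. Cd160 encodes a receptor for HVEM and MHC class I molecules, found on NK cells and on subsets of cytotoxic T cells. Many activating receptors have no signalling tail of their own and rely on adaptors: Fcer1g encodes the Fc receptor gamma chain and Tyrobp encodes DAP12, whose tyrosine motifs recruit the kinases Syk and Zap70. In the brain both adaptors are abundant in microglia, the resident macrophages, so the identity of each adaptor-positive cell was examined before anything else was read from it.

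A total of 1482 cells were kept, 912 from TAT-CRE and 570 from PBS mice (274 to 311 per mouse), with 362457 to 839188 UMIs per mouse. The median cell of the TAT-CRE mice 207, 208 and 215 held 1953, 993 and 1600.5 UMIs, and that of the PBS mice 216 and 218 held 1410 and 2660. TAT-CRE 208 stood apart: ribosomal RNA genes took 28.3% of its UMIs and 43.9% to 48.0% in the other 4 mice, and its cells were the shallowest. Each mouse had its own library of 384 wells, so library and mouse cannot be told apart. The same 384 well barcodes served all 5 libraries, which were separated by 5 pool barcodes, and none of the 20 empty wells held a UMI of the 6 genes. The sorted lineage was visible in the RNA: a UMI of at least 1 of 7 T cell genes was found in 93.2% of cells with one of the 6 genes and in 88.8% of the others. Microglial genes were close to absent, with 7 of 11 at 0 in every kept cell (P2ry12, Tmem119, Sparc, C1qb, Csf1r, Trem2 and Siglech).

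The killer cell lectin receptor genes are neighbours on chromosome 6 of the mouse genome build mm10: Klrd1 (chr6:129591782-129598775, plus strand), Klrk1 (chr6:129610323-129623864, minus strand) and Klrc1 (chr6:129666015-129678973, minus strand) lie within 87.2 kb, with Klrc3 and Klrc2 between Klrk1 and Klrc1. Cd160 is at chr3:96798763-96829351 on the minus strand and overlaps Pdzk1 on the plus strand, which had no UMI in any kept cell. Fcer1g is at chr1:171229572-171234365 on the minus strand and Tyrobp at chr7:30413760-30417585 on the plus strand. All 6 are protein-coding genes. The RefSeq promoter table of build GRCm38.p6 held 4 of the 6 genes with 5 transcription starts; Klrd1 and Tyrobp were not among them. The 250 bases before a start are shown for 4 of these starts, because these genes were detected in partly the same cells, and each window is written 5′ to 3′ on the gene's own strand. Capitals mark the RUNX core TGTGGT (or its reverse complement ACCACA) and the ETS site GGAAGT, searched on both strands; RUNX and ETS are transcription factor families active in cytotoxic lymphocytes.
Klrk1 (chr6:129623865-129624114, minus strand): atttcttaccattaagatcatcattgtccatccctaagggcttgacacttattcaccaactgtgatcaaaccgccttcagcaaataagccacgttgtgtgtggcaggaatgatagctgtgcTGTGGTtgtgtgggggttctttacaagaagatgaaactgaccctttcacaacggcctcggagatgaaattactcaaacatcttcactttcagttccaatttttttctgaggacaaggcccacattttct
Klrc1 (chr6:129678974-129679223, minus strand): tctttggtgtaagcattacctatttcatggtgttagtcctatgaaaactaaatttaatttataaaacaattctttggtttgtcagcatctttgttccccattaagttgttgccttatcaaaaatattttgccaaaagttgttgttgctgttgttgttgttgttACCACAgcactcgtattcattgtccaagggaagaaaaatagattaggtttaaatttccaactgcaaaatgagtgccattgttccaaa
Cd160, inner start (chr3:96814522-96814771, minus strand): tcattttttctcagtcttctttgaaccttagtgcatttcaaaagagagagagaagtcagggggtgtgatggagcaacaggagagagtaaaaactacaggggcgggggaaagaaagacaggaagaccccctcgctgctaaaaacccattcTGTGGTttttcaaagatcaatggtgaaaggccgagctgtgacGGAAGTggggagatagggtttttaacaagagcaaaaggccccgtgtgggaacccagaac
Fcer1g (chr1:171234350-171234599, minus strand): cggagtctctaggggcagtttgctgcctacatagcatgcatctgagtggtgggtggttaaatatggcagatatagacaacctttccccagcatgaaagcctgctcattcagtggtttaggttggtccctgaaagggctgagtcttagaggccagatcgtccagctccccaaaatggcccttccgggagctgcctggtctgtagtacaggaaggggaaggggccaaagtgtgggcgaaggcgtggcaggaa
The RUNX core was found once in the windows of Klrk1, Klrc1 and both starts of Cd160, and not in that of Fcer1g; 14.0% of 32851 promoters of the same length hold it. The ETS site was found only at the inner start of Cd160 among these 5 windows, and 19.7% of all promoters hold it. The T-box core AGGTGT was in none of the 5 windows and in 11.8% of all promoters. A match describes the letters and is not evidence of binding.

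The receptor Klrk1 was read in every mouse. Levels are given in CPM, the UMIs of a gene scaled to the total UMIs of its mouse. For Klrk1, mice 207, 208 and 215 (TAT-CRE) had 182, 77.3 and 39.1 CPM, and mice 216 and 218 (PBS) had 193 and 181 CPM. The TAT-CRE mean was 99.4 ± 74.0 (SD, n = 3) and the PBS mean 187 ± 8.25 (SD, n = 2). TAT-CRE 207 was as high as the PBS mice and the other 2 TAT-CRE mice were lower, so the groups overlapped. Cells with a Klrk1 UMI numbered 38, 12 and 7 under TAT-CRE, then 31 and 40 under PBS, 128 in all (8.64%, 95% exact binomial interval 7.26 to 10.2%). Cells with the gene held a median of 3 of its UMIs and at most 19, so its level did not rest on single cells: the 3 cells with most UMIs gave 11.7% of them.

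Klrd1 and Klrc1 overlapped between the groups. Klrd1 stood at 108, 82.8 and 66.3 CPM under TAT-CRE (mice 207, 208, 215), compared with 84.7 and 120 CPM under PBS (mice 216, 218), with means of 85.8 ± 21.2 (SD, n = 3) and 103 ± 25.2 (SD, n = 2). The highest and the lowest mouse were a PBS and a TAT-CRE mouse, and the others interleaved. It had a UMI in 119 cells (8.03%). Klrc1, which encodes the inhibitory partner of CD94, stood at 57.8, 11.0 and 22.1 CPM under TAT-CRE, compared with 12.6 and 44.1 CPM under PBS. Its spread within each group exceeded the difference between the means, 30.3 ± 24.4 (SD, n = 3) against 28.4 ± 22.3 (SD, n = 2). Klrc1 had a UMI in 43 cells. Its close paralogue Klrc2 had one in 13 cells, of which 7 also had a Klrc1 UMI, and Klrc3 in 2; reads of these near copies may have been shared in counting, so the level of Klrc1 is uncertain to that extent.

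Cd160 separated the groups most evenly. Mice 207, 208 and 215 (TAT-CRE) had 15.9, 8.28 and 15.3 CPM of it, whereas mice 216 and 218 (PBS) had 70.3 and 66.7 CPM. Both PBS mice therefore lay above the highest TAT-CRE mouse, and they differed little from each other (13.2 ± 4.24, SD, n = 3, against 68.5 ± 2.50, SD, n = 2). A Cd160 UMI was found in 1.29%, 0.990% and 2.01% of cells under TAT-CRE, compared with 4.73% and 4.74% under PBS, which was 13 cells against 27. The top 3 cells held 26.3% of its UMIs.

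Fcer1g also had both PBS mice above all TAT-CRE mice, with fewer cells. For this adaptor, mice 207, 208 and 215 (TAT-CRE) had 5.78, 8.28 and 5.10 CPM, whereas mice 216 and 218 (PBS) had 57.7 and 21.4 CPM. The groups did not overlap, but the PBS mice differed from each other by more than the TAT-CRE mice did (6.38 ± 1.67, SD, n = 3, against 39.6 ± 25.6, SD, n = 2). Under TAT-CRE these levels rest on 1, 2 and 1 cells, and under PBS on 9 and 5 cells. Tyrobp had no UMI in any of the 912 TAT-CRE cells, which allows a share of up to 0.329% of cells with a UMI and sets no limit on cells that express the gene, whereas PBS mouse 216 had 2 and PBS mouse 218 had 8 of its UMIs. Set against a floor of 3 counts over the TAT-CRE group, the summed PBS level of Tyrobp was 3.93-fold higher. This ratio takes the PBS count as exact and its UMIs as independent, so it is not a lower limit on the difference. Of the 10 Tyrobp UMIs, 7 came from 1 cell of PBS 218, and 4 cells had the gene at all. In sums over a mouse, fewer cells with a gene and less RNA of it per cell cannot be told apart.

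**Figure D1:**
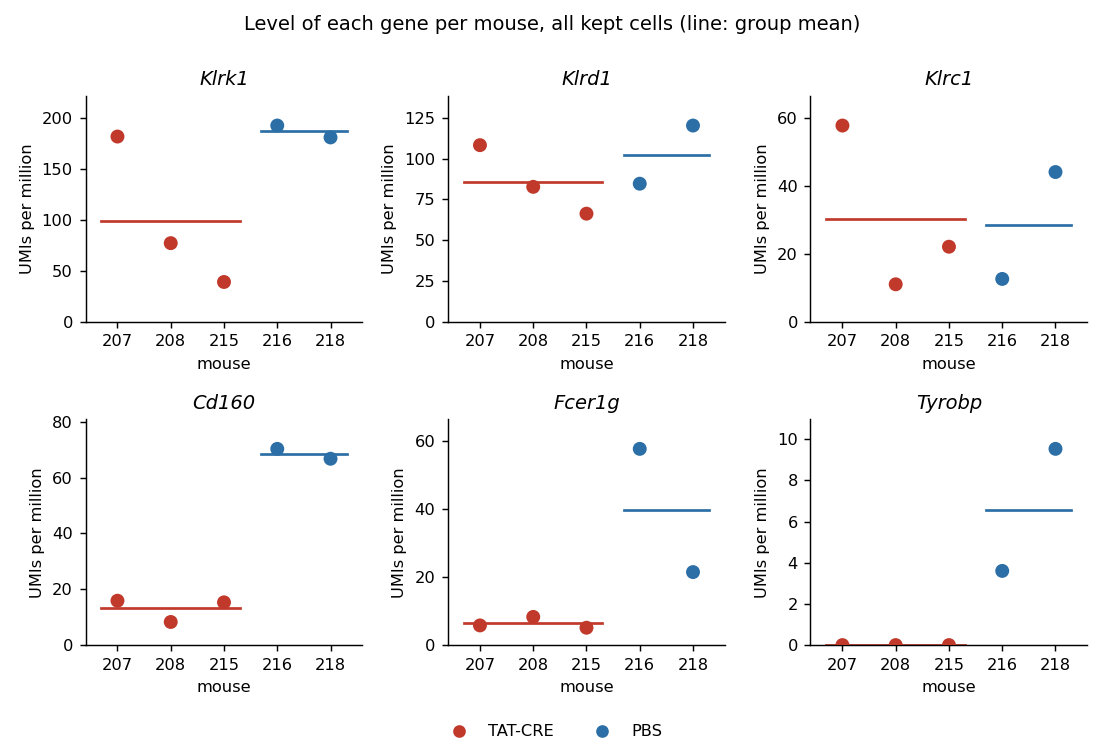
Level of each of the 6 genes per mouse, in CPM over the summed UMIs of all kept cells, with TAT-CRE mice (207, 208, 215) in red, PBS mice (216, 218) in blue and lines at the group means. Cd160, Fcer1g and Tyrobp have both PBS mice above all TAT-CRE mice, while Klrk1, Klrd1 and Klrc1 overlap.

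Non-overlap of 3 against 2 mice was common across the transcriptome: 7.22% of the 6341 genes tested had all TAT-CRE mice below both PBS mice, and 10.3% had them above. Of the 5 genes described here that passed the filter on low counts, 2 (Cd160 and Fcer1g) did not overlap; Tyrobp did not overlap either and did not pass the filter. These counts use the contrast by which the genes were chosen, and nothing is read from them. The fitted differences between TAT-CRE and PBS, on the log2 scale, were -2.36 (SE 0.58) for Cd160, -2.71 (SE 0.82) for Fcer1g, -0.94 (SE 0.48) for Klrk1, -0.32 (SE 0.37) for Klrd1 and 0.12 (SE 0.79) for Klrc1. The sign for Klrc1 turned when TAT-CRE 207 was left out (-0.79) or PBS 216 was left out (-0.46). Without TAT-CRE 208, the differences were -2.05 for Cd160, -2.75 for Fcer1g and -0.70 for Klrk1, -0.16 for Klrd1 and 0.54 for Klrc1.

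No gene of the transcriptome was called in that fit. With edgeR's quasi-likelihood test and Benjamini-Hochberg adjustment at 0.05, 0 of 6341 genes (0%) passed, 239 had an unadjusted p under 0.05 (2.13% of genes higher and 1.64% lower in TAT-CRE), and DESeq2 called 1, the interferon-induced gene Ifit3, higher in TAT-CRE. With 0 genes called by edgeR, no list of genes that work with these receptors could hold a call. The lists are therefore described by their medians. Of 32 other NK receptors and partners, 10 were tested and 0 called, with a median log2 difference of -0.10. The 14 tested genes that signal below the adaptors, had a median of 0.00 (Lck -0.30, SE 0.21, and Zap70 -1.06, SE 0.37, neither called), the 11 tested cytotoxic effector genes -0.10, and all genes tested 0.00. Of 10 genes of ligands and their partners, such as the Qa-1 gene H2-T23, 5 were tested, with a median of -0.01.

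Cells with a UMI of any of the 6 genes made up 18.8% of kept cells, 278 of 1482 (95% exact binomial interval 16.8 to 20.8%). By mouse, 207, 208 and 215 (TAT-CRE) had shares of 24.1%, 8.25% and 11.4%, whereas 216 and 218 (PBS) had 20.9% and 29.9%. In ascending order the mice were TAT-CRE 208, TAT-CRE 215, PBS 216, TAT-CRE 207 and PBS 218. Only the step from TAT-CRE 215 (up to 15.6%) to PBS 216 (from 16.5%) had binomial intervals that did not overlap; these cover counting error alone. Depth moved with the share: cells with such a UMI had a median of 2316.5 UMIs and the others 1498, and the mouse with the lowest share had the shallowest cells and the one with the highest share the deepest.

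With every cell thinned to 400 UMIs, which left out no kept cell, mice 207, 208 and 215 (TAT-CRE) had shares of 9.0%, 4.29% and 5.37%, whereas mice 216 and 218 (PBS) had 10.8% and 9.12%. The means were 6.22 ± 2.47% (SD, n = 3) and 9.97 ± 1.19% (SD, n = 2), and the groups no longer overlapped, although TAT-CRE 207 and PBS 218 lay close together. At that depth Klrk1 was found in 1.96 ± 0.944% of TAT-CRE cells and 4.54 ± 0.745% of PBS cells. Cd160 was found in 0.663 ± 0.343% and 2.11 ± 0.115%. Fcer1g had no thinned UMI in any TAT-CRE cell and one in 7 cells of PBS 216 and 1 cell of PBS 218, so most of its thinned signal came from 1 mouse.

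**Figure D2:**
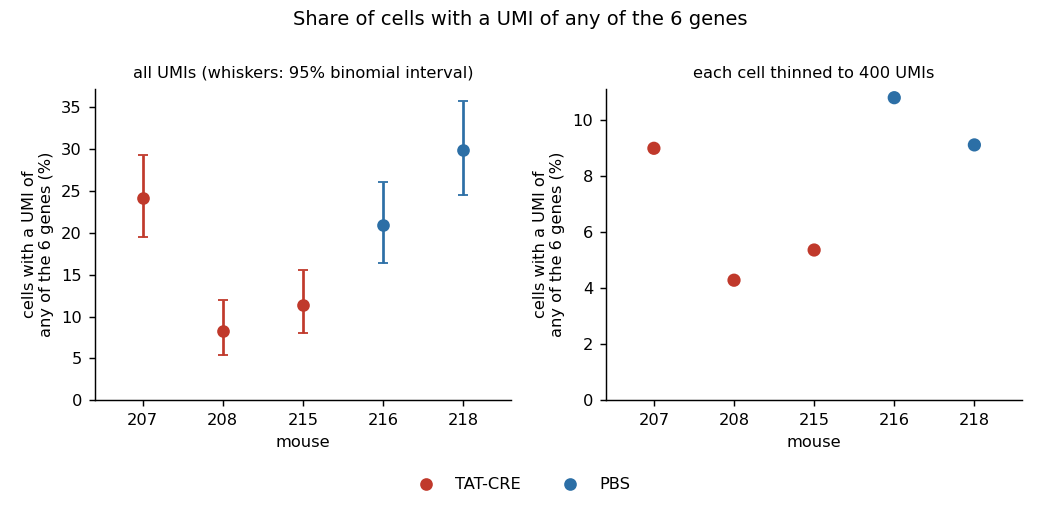
Share of kept cells with a UMI of any of the 6 genes in each mouse, with all UMIs (left, whiskers are 95% exact binomial intervals) and after thinning each cell to 400 UMIs (right). TAT-CRE 207 lies among the PBS mice on the left and just below them on the right, and TAT-CRE 208 and 215 are lowest in both.

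Most cells with one of these genes had only one of them. Of the 278 cells, 218 had UMIs of 1 gene, 46 of 2 and 14 of 3, and no cell had 4 or more. The killer cell lectin receptors were found together most often: 30 cells had both Klrk1 and Klrd1, in all 5 mice (9, 1 and 2 in TAT-CRE 207, 208 and 215, 8 and 10 in PBS 216 and 218). Klrd1 was found in 23.4% of cells with Klrk1 and in 6.57% of cells without it. At 400 UMIs per cell the same shares were 9.09% and 2.71%, with 4 cells left that had both. These are descriptions over cells and carry no test.

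The inhibitory receptor gene Klrc1 was seen with the activating Klrk1 in 16 cells and with its partner Klrd1 in 12. Klrk1 was thus found in 37.2% of cells with Klrc1, against 7.78% of cells without it, and Klrd1 in 27.9% against 7.44%. Cells with Klrc1 were deep, with a median of 3091 UMIs against 1614 in the others. Thinned to 400 UMIs, 1 cell had Klrk1 and Klrc1, and Klrc1 was in 2.27% of cells with Klrk1 and 1.11% of cells without it. Klrk1, Klrd1 and Klrc1 were all found in 7 cells. A further 22 of the 43 cells with Klrc1 had none of the other 5 genes.

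Cd160 was also seen with the lectin receptors. It was found with Klrk1 in 8 cells and with Klrd1 in 6, and only 1 cell had Cd160 and Klrc1, the latter found in 2.50% of cells with Cd160 and in 2.91% of cells without it. Of 40 cells with Cd160, 27 had no other gene of the 6. Thinned to 400 UMIs, 3 cells had Cd160 with Klrk1 and 3 had it with Klrd1, and Cd160 was in 6.82% of cells with Klrk1 against 1.04% of cells without it. The adaptor Fcer1g was seen with Klrk1 in 7 of its 18 cells (38.9%, against 8.27% of cells without Fcer1g), with Klrd1 in 3 and with Cd160 in 2. No cell had both adaptors, and none had Fcer1g with Klrc1. Tyrobp was seen with Klrd1 in 2 of its 4 cells and with Klrk1 in 1.

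**Figure D3:**
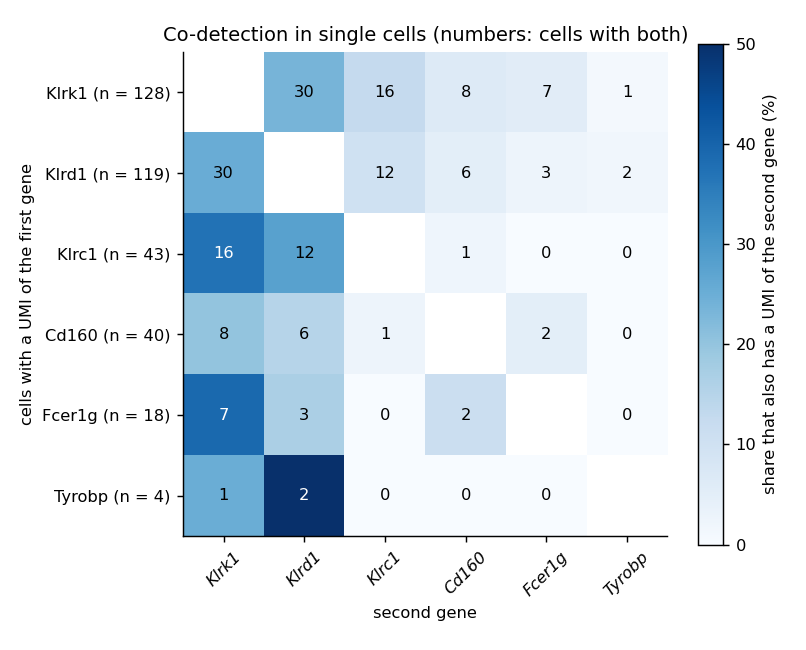
Number of cells with UMIs of both genes of each pair (printed) and, as colour, the share of cells with the first gene (rows, with their number of cells) that also have the second (columns). Klrk1 and Klrd1 share 30 cells, and the rows of Fcer1g and Tyrobp rest on 18 and 4 cells.

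Cells were placed in classes by the coreceptor genes they had: 630 cells had a Cd8a or Cd8b1 UMI and no Cd4 UMI, 85 had a Cd4 UMI and no Cd8 UMI, 25 had both and 742 neither. The class without coreceptor UMIs was the shallowest (median 1315.5 UMIs, against 1985.5 in the Cd8 and 1717 in the Cd4 class), so missing coreceptor UMIs do not show that a cell lacked the protein. A UMI of any of the 6 genes was found in 24.9% of Cd8 cells (21.6 to 28.5%), 12.9% of Cd4 cells (6.64 to 22.0%) and 13.7% of cells with neither (11.3 to 16.4%). Of the 11 positive Cd4 cells, 7 came from TAT-CRE 207. Per mouse the share was higher in Cd8 than in Cd4 cells in 4 of 5 mice, by 10.7 ± 8.77 percentage points (SD of the paired differences), p = 0.125 in an exact two-sided paired permutation test, which with 5 mice cannot go below 0.0625.

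Of the cells with Cd160, 62.5% lay in the Cd8 class, against 42.5% of all kept cells. Cd160 had a UMI in 25 of 630 Cd8 cells (3.97%), in 2 of 25 cells with both coreceptors, in 13 of 742 cells with neither (1.75%) and in 0 of 85 Cd4 cells. The latter allows a share of cells with a UMI of up to 3.53% by the floor of 3 counts and 4.25% by the exact binomial interval. Its share was higher in Cd8 cells than in Cd4 cells and than in cells with neither in 5 of 5 mice, by 4.03 ± 2.14 and 2.25 ± 0.82 percentage points (SD). Both comparisons gave p = 0.0625, the smallest an exact paired permutation test can give here, and 0.219 after Benjamini-Hochberg adjustment over 14 comparisons. The Cd4 class held only 22, 19, 23, 13 and 8 cells (mice 207, 208, 215, 216, 218), so 0 in any 1 mouse says little. Its exact limit of 4.25% also lies above the Cd8 share of 3.97%. With cells thinned to 400 UMIs and put into classes again, Cd160 was in 2.62% of Cd8 and 0.823% of neither cells. The lectin receptors were also most often found in Cd8 cells among these 3 classes. Klrd1 was found in 11.4% of Cd8, 5.88% of Cd4 and 5.39% of neither cells, and was higher in Cd8 than in neither cells in 5 of 5 mice (by 5.00 ± 2.79 percentage points, exact paired permutation p = 0.0625, adjusted 0.219). Thinned and put into classes again, Klrd1 was in 10 of 343 Cd8 cells (2.92%) and 32 of 1093 neither cells (2.93%). Thinning shrank the Cd8 class from 630 to 343 cells and enlarged the neither class from 742 to 1093. For Klrd1 these shares therefore cannot tell whether the difference holds at equal depth. The thinned shares of the other genes come from the same changed classes, so they do not compare the cells of the full-depth classes. Klrc1 was found in 4.76%, 2.35% and 1.21%, and was higher in Cd8 than in Cd4 cells in 5 of 5 mice (p = 0.0625, adjusted 0.219, exact paired permutation test), but thinned it was in 2.33% of Cd8 and 2.22% of Cd4 cells, the latter 1 cell of 45. Klrk1 was found in 10.8%, 4.71% and 7.01%, with p = 0.188 and 0.312 for Cd8 against Cd4 and neither cells (exact paired permutation test). None of the 14 adjusted values passed 0.05.

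Fcer1g lay mainly outside the coreceptor classes: 13 of its 18 cells (72.2%) had neither Cd8 nor Cd4 UMIs, against 50.1% of all kept cells, 4 had Cd8 and 1 had Cd4. PBS 216 gave 8 of these 13 cells. The share was higher in neither than in Cd8 cells in 4 of 5 mice, a difference of 1.12 ± 2.21 percentage points (SD, exact paired permutation p = 0.375), so it was not larger than the spread between mice. With cells thinned to 400 UMIs and put into classes again, 7 of 1093 cells with neither (0.640%) and 1 of 343 Cd8 cells (0.292%) had the gene. Thinning changed which cells each class held, so these shares do not repeat the full-depth comparison in the same cells. Of the 4 cells with Tyrobp, 2 had Cd8 and 2 had neither.

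**Figure D4:**
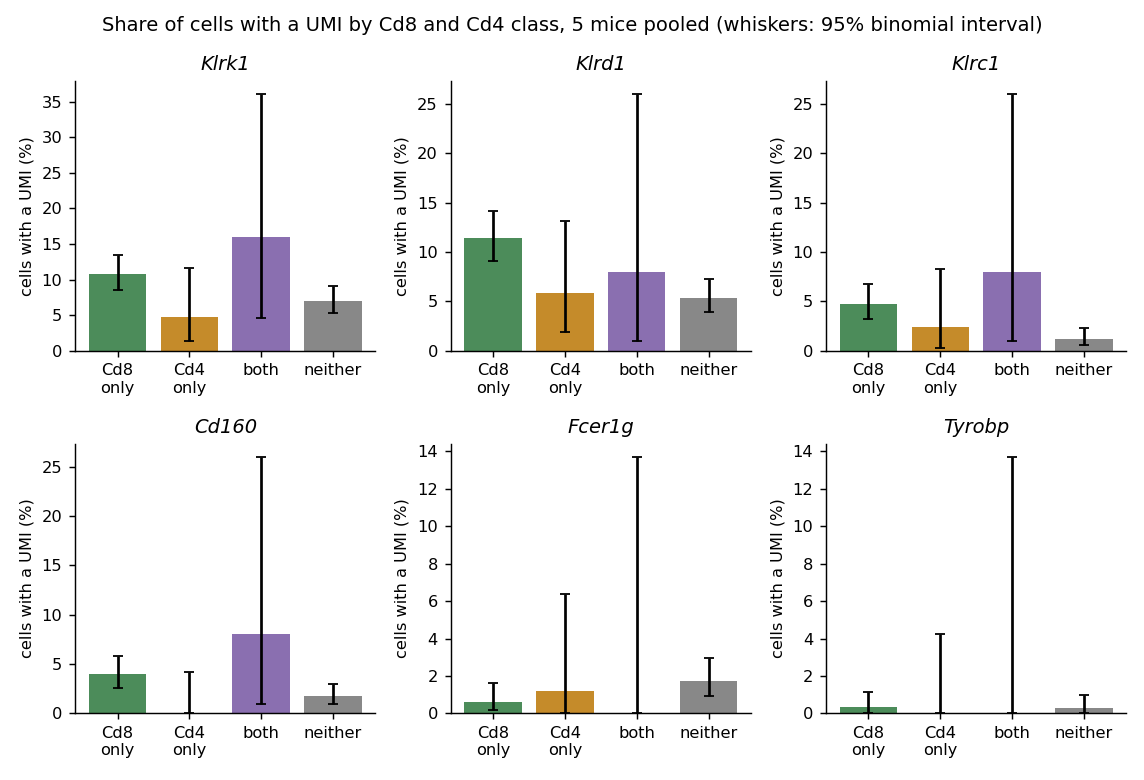
Share of cells with a UMI of each gene by coreceptor class: Cd8 without Cd4, Cd4 without Cd8, both or neither (630, 85, 25 and 742 cells of 5 mice), with 95% exact binomial intervals as whiskers. Cd160 is at 0 among Cd4 cells, and Fcer1g is highest among cells with neither.

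Within the Cd8 class the levels of Cd160 did not overlap between the groups. They were 18.7, 20.4 and 26.0 CPM under TAT-CRE (mice 207, 208, 215), compared with 70.8 and 117 CPM under PBS (mice 216, 218). These levels rest on 8, 2 and 7 UMIs in 3, 2 and 4 cells under TAT-CRE. Under PBS they rest on 21 and 47 UMIs in 8 and 8 cells. The cells are part of those by which Cd160 was chosen, so its levels here are not separate evidence. The fitted log2 difference was -2.12 (SE 0.68); Klrk1 had -0.70 (SE 0.63), Klrd1 -0.53 (SE 0.45) and Klrc1 0.93 (SE 0.81), while Fcer1g and Tyrobp did not pass the filter. Among the 4013 genes tested in Cd8 cells, 8.25% did not overlap and were lower in TAT-CRE, and 9.05% did not overlap and were higher. In that fit edgeR's quasi-likelihood test called 0 genes (0%), while 123 had an unadjusted p below 0.05 (1.72% of genes higher, 1.35% lower), and DESeq2 called 0. In cells with neither coreceptor, the 6 genes together stood at 158 ± 13.4 CPM under TAT-CRE (SD, n = 3), compared with 453 ± 246 CPM under PBS (SD, n = 2).

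The cells with Fcer1g carried T cell transcripts. All 18 had a UMI of at least 1 of 7 T cell genes, 13 had a T cell receptor beta constant chain and 12 a CD3 chain. None had a UMI of the 10 monocyte or macrophage genes. Across all kept cells the microglial list summed to 5.10 to 74.5 CPM under TAT-CRE, compared with 33.4 and 84.7 CPM under PBS, and the monocyte or macrophage list (7 of 10 genes at 0) to at most 3.40 and 3.60 CPM. The part of these cell types in the levels of Fcer1g was not tested beyond these values. Gamma-delta constant chains were found in 8 of the 18 cells, against 9.63% of cells without Fcer1g, but Trdc, the delta chain itself, in none. With these chains read after thinning and Fcer1g at full depth, the gamma-delta shares were 5.56% and 4.17%.

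Genes of cytotoxic and NK-like T cells were unevenly found in the Fcer1g cells. The chemokine gene Ccl5 was found in 15 of 18, the memory marker Ly6c2 in 13, the NK receptor gene Klre1 in 4, Klrb1c (NK1.1) in 3 and Ncr1 in 1. In cells without Fcer1g the same 5 genes were found in 62.5%, 26.9%, 2.25%, 0.615% and 0%. Gzmk, Xcl1 and Cd226 had no UMI in these 18 cells, against 12.6%, 5.81% and 7.65% of cells without Fcer1g. For 0 of 18 cells the exact binomial interval reaches 18.5%, above all 3 shares, so lower shares cannot be read from these counts. Cd8 genes were found in 22.2% (6.41 to 47.6%) against 44.5%. After thinning, Ly6c2 was found in 44.4% of cells with Fcer1g and 11.6% of cells without it, and Ccl5 in 61.1% and 41.6%. Here only the marker was read after thinning, and cells with Fcer1g were still those found at full depth. All 4 cells with Tyrobp had a UMI of an NK gene, 3 had T cell genes and 1 had a monocyte or macrophage gene, and the cell that held 7 of the 10 Tyrobp UMIs had 25 UMIs of T cell receptor and CD3 genes, 7 of Klrd1 and 5 of Klrb1c.

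In the summed counts, cells with a UMI of any of the 6 genes had more Ly6c2 and more Gzmb than cells of the same mouse without one. Ly6c2, a surface marker of memory and effector CD8 T cells, stood at 1152, 1339 and 785 CPM in positive cells of the TAT-CRE mice (207, 208, 215), where the remaining cells had 291, 338 and 459 CPM. In the PBS mice (216, 218) positive cells had 957 and 957 CPM, the remaining cells 436 and 481 CPM. The rise was 1.33 on the log2 scale (SE 0.17, adjusted p = 0.000559 by edgeR's quasi-likelihood test with the mouse as a block), in 5 of 5 mice, as 2.42% of all genes tested were. Ly6c1 is a near copy of Ly6c2, and how reads were split between them is not given in the sources used here.

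Gzmb encodes granzyme B, a protease that cytotoxic cells release into their targets. It stood at 406, 1066 and 151 CPM in positive cells of the TAT-CRE mice, where the remaining cells had 77.5, 218 and 24.2 CPM. In the PBS mice positive cells had 123 and 221 CPM, the remaining cells 66.1 and 73.4 CPM. The rise was 1.90 (SE 0.30, adjusted p = 0.00649, edgeR's quasi-likelihood test), in 5 of 5 mice. It was not called without TAT-CRE 207 (adjusted p = 0.190), without TAT-CRE 208 (adjusted p = 0.119), or when each cell counted at most once (log2 difference 0.62, adjusted p = 0.720). These 2 genes were the only calls among 3094 genes tested, 0.0646% higher and 0% lower, while 120 had an unadjusted p below 0.05 (1.39% of genes higher, 2.49% lower). DESeq2 called the same 2 genes. With cells thinned to 400 UMIs before they were classified, no gene was called (Ly6c2 1.20, adjusted p = 0.291). Nor was any when only cells with Cd160 were taken as positive (Ly6c2 0.13, adjusted p = 0.921; Gzmb 0.01, adjusted p = 0.995). Over all alternatives run, the adjusted p of Ly6c2 ranged from 4.76e-08 to 0.921 and that of Gzmb from 4.72e-06 to 0.995.

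**Figure D5:**
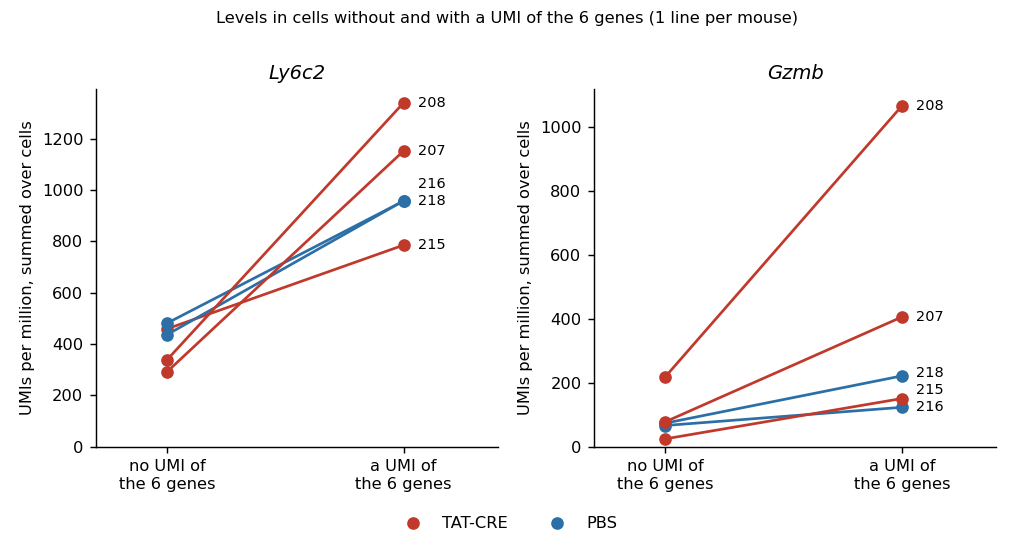
Level (CPM) of Ly6c2 and Gzmb in cells without (left) and with (right) a UMI of the 6 genes, summed per mouse, 1 line for each mouse. Both genes are higher in the positive cells of each of the 5 mice, and among positive cells TAT-CRE 208 is highest for both.

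The gene lists differed unevenly between cells with and without the 6 genes. Of 11 cytotoxic effector genes tested, 9 had a positive log2 difference and 1 (Gzmb) was called, with a median of 0.53 against -0.12 over all genes tested. Nkg7, a granule protein gene (0.62), and Ccl5 (0.51) were not called. Of 8 memory and effector regulators, 1 (Ly6c2) was called. None was called among 7 other NK receptors and partners (median 0.04), 14 signalling genes (median -0.14), 8 tissue residency genes (median 0.07) or 7 naive genes (median -0.14). Lat, an adaptor below the T cell receptor, was lower in the positive cells of 5 of 5 mice without being called (-0.85, SE 0.25, adjusted p = 0.932, edgeR's quasi-likelihood test); 4.85% of all genes tested were lower in 5 of 5.

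Within Cd8 cells the same comparison called no gene. Of 1622 genes tested by edgeR's quasi-likelihood test, 0 passed (0%), 48 had an unadjusted p under 0.05 (1.05% of genes higher, 1.91% lower), and DESeq2 called 1, Gzmb. The smallest unadjusted p-values among higher genes belonged to Gzmb (log2 difference 1.81, SE 0.41), the chemokine receptor gene Cxcr6 (0.69, SE 0.16), Ly6c2 (0.90, SE 0.23), Chchd3 (1.95, SE 0.72) and Ccnd3 (1.10, SE 0.41). Those among lower genes belonged to Rpl8, Baz2a, Rps13-ps2, Gm10073 and Irf2 (-0.45 to -2.28). The adjusted p-values of these 10 genes were 0.426 to 0.986. Gzmb, Cxcr6, Ly6c2 and Ccnd3 were higher in the positive cells of 5 of 5 mice, as were 1.73% of all genes tested, and the 5 lower genes were lower in 5 of 5, as were 3.39%.

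The Cd8 and Cd4 classes themselves differed in Ccl5 and Ly6c2. Ccl5 stood at 3175 ± 774 CPM in Cd8 cells and 715 ± 375 CPM in Cd4 cells (SD, n = 5), a rise of 2.17 (SE 0.20, adjusted p = 1.37e-05, edgeR's quasi-likelihood test with the mouse as a block). Ly6c2 stood at 648 ± 164 and 66.9 ± 47.0, a rise of 3.21 (SE 0.48, adjusted p = 0.00175). These were the only genes called outside the coreceptor genes among 728 tested (0.275% higher and 0% lower), while 3.71% of genes were higher and 2.75% lower with an unadjusted p below 0.05. Both were higher in 5 of 5 mice, as were 5.49% of genes, while 3.02% were lower in all 5. None of the 6 genes passed the filter in these small sums. Nkg7 (1.35), Epsti1 (1.78) and Ms4a4b (1.00) followed among higher genes without being called. Trbc1, Rgs2, Fos, Junb and Atrx, lower in Cd8 cells by differences of -0.93 to -1.68, were not called either.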

How the data were processed

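The authors deposited raw UMI counts per gene and well. Of the pipeline, bcl2fastq 2.15.0.4 and genome build mm10 are named per the submitters' processing notes. Aligner, annotation and strand: not given in the sources used here. The number of cells per well, a count, was taken per the file headers. Kept cells were wells with 1 cell, a minimum of 400 non-spike UMIs and a maximum of 30% mitochondrial UMIs; doublets were not called, since 1 cell was sorted per well. Counts were summed per mouse, or per mouse and kind of cell, and tested with edgeR 4.0.16 (filterByExpr, TMM, quasi-likelihood test, Benjamini-Hochberg over all genes tested, threshold 0.05) in R 4.3.3, with DESeq2 1.42.0 as an alternative. Both kinds of cell came from the same mouse, so the mouse was a block; their deviations correlated by 0.021 to 0.17 within mice. Splits needed at least 3 cells a side in a mouse. In the fits of cells with against without the 6 genes, the genes that defined the split were left out. Between Cd8 and Cd4 cells, Cd8a, Cd8b1 and Cd4 stayed in the fit and in the adjustment over 731 genes. They were left out only of the counts of genes called, over 728 genes. Thinning used a fixed random seed (1). Positions came from GENCODE M21 and promoters from RefSeq. The scripts were tested on simulated data. The 6 genes and the gene lists, as well as the tests and naming rule, were chosen with earlier results of these data known. That rule names the 6 genes, list genes, the 5 genes of smallest p each way between Cd8 and Cd4 cells and, between cells with and without the 6 genes, the called genes or, where none was called, the 5 of smallest p each way. P-values measure the spread between these libraries. Totals of 362457 to 839188 UMIs per mouse set the precision; binomial intervals and floors of 3 counts cover counting error only. Alternatives were another test, filter, scaling, cell limits, cell weights, coreceptor rules, definitions of positive cells and leaving out each mouse. One marker gene is not reported here by name.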

Additional observations from a re-analysis of the deposited data

Results flagged for a closer look

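More than 3 UMIs of each of 4 of the 6 genes also appeared in wells that the comparisons do not use, while the 20 empty wells held 0 of each. In the 223 wells under the minimum of 400 UMIs there were 8 UMIs of Klrk1, in 6 wells, and 5 of Fcer1g, in 2 wells (1 UMI in TAT-CRE 207 and 4 in PBS 218). In the 195 wells over the mitochondrial limit there were 15 UMIs of Klrk1, in 7 wells, 19 of Klrd1, in 10 wells, and 6 of Klrc1, in 4 wells. PBS 216 held 15 of those 19 Klrd1 UMIs. The groups of 3 and 2 mice are too small to single out an outlying mouse.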

How the results depend on the processing

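No paired analysis was possible for TAT-CRE against PBS because the groups share no replicate numbers. In that comparison the count of genes called was 0, and 0 each time a mouse was left out; it was 1 with DESeq2, 8 without the filter on low counts and 1 with each gene counted once per cell. Within Cd8 cells it was 0 (0 without any 1 mouse), 1 without the filter and 1 counted once per cell. The log2 difference of Klrc1 turned from 0.12 to -0.79 without TAT-CRE 207 and -0.46 without PBS 216 (up to 1.25 without PBS 218), and its share of cells from 0.343 to -0.0475 percentage points at 800 UMIs per cell (-1.19 and -1.34 without these mice, up to 2.03 without PBS 218). For any of the 6 genes the share differed by -10.8 points, -15.6 to -6.35 leaving out 1 mouse and -3.75 at 400 UMIs; without TAT-CRE 208 it was -7.67.

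Between Cd8 and Cd4 cells 2 genes were called, 2 to 3 leaving out 1 mouse, 9 with DESeq2, 57 without the filter, 5 with Cd8a alone, 6 with at least 2 Cd8 UMIs and 2 with no replicate block. Between cells with and without the 6 genes 2 were called, 1 to 2 leaving out 1 mouse, 14 without the filter (3 higher, 11 lower), 1 with no replicate block (pairing ignored), 0 thinned to 400 UMIs and 0 with Cd160 alone. Within Cd8 cells 0 were called, 0 leaving out 1 mouse, 1 with DESeq2, 5 without the filter and 0 with no replicate block. Positive cells by adaptors alone were not run, since 2 mice, or 1 within Cd8 cells, had enough cells. Low counts limit what can be seen: Tyrobp had 10 UMIs and Fcer1g 60 in all mice, and 5 mice cannot give an exact paired p under 0.0625. The causes of these differences were not tested.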

Other observations

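Of 32 other NK receptors and partners looked up, 31 had a row in the files and 27 a UMI in kept cells. Klre1, an NK receptor gene of the lectin family, had 28, 4 and 0 UMIs under TAT-CRE (mice 207, 208, 215), compared with 46 and 63 under PBS (mice 216, 218). In CPM it stood at 40.4, 11.0 and 0, compared with 82.9 and 75.1, so the groups did not overlap. Across the transcriptome, 7.22% of the 6341 genes tested were also lower in TAT-CRE without overlap. A Klre1 UMI was found in 37 cells, 25 of which also had a UMI of the 6 genes, most often Klrk1 (19 cells). Klre1 was found in 8.99% of cells positive for the 6 genes and 0.997% of the others. With Klre1 read after thinning and the 6 genes at full depth, the shares were 3.24% and 0.581%. Klrb1c (NK1.1) had 0, 5 and 1 UMIs under TAT-CRE, compared with 20 and 10 under PBS, and 8 of its 12 cells had a UMI of the 6 genes. In CPM the groups overlapped for Klrb1c, with 13.8 in TAT-CRE 208 and 11.9 in PBS 218. Other genes of the list leaned the other way, with overlap. Klrg1 had 33, 24 and 5 UMIs under TAT-CRE against 10 and 6 under PBS, and Crtam 23, 3 and 10 against 5 and 8. Of the 10 genes of the list that were tested, 4 had a positive and 6 a negative log2 difference (median -0.10). Hcst, which encodes DAP10, the adaptor that NKG2D uses in T cells, was broader: it was found in 328 cells and stood at 272, 235 and 325 CPM under TAT-CRE, compared with 364 and 256 CPM under PBS, so the groups overlapped. It was found in 29.7% of cells with Klrk1 and 21.4% of cells without it. With Hcst read after thinning and Klrk1 at full depth, the shares were 10.9% and 8.57%.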
